A study of Mus musculus with 6 samples.

Results

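Adrenomedullin and CGRP receptor genes were read in RNA-seq libraries of mouse abdominal aorta. The genes were *Calcrl*, which encodes the calcitonin receptor-like receptor, *Ramp1*, *Ramp2* and *Ramp3*, which encode its receptor activity-modifying proteins (RAMPs), and *Adm*, which encodes adrenomedullin. They were 5 of the 55426 genes of the table and were found by their gene symbols. They were selected on the TPM difference between *Prdm16*SMKO and control libraries, as one receptor system around *Calcrl*, with that contrast already known. Their differences between the groups are therefore descriptions, for which no p-value is given.

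The calcitonin receptor-like receptor is a G protein-coupled receptor that reaches the cell surface and binds its peptides only together with a RAMP. With RAMP1 it is the receptor of calcitonin gene-related peptide (CGRP), a vasodilator released by sensory nerves, and with RAMP2 or RAMP3 it is a receptor of adrenomedullin, a vasodilator made by the vessel wall. In arteries the receptor signals mainly through Gs and cyclic AMP, relaxes smooth muscle and helps to keep the endothelium tight.

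The libraries came from 3 control mice and 3 *Prdm16*SMKO mice, all male and of the C57BL/6J strain. *Prdm16*SMKO mice carried *Prdm16* fl/fl, in which the gene of the transcriptional regulator PRDM16 is flanked by loxP sites, and *Myh11*-CreERT2, a tamoxifen-inducible Cre driven by the promoter of a smooth muscle myosin gene and carried on the Y chromosome. The labels call the other group control, and the study describes it both as wild type and as *Myh11*-CreERT2, so the presence of Cre in both groups rests on that description. In the study's methods for its aneurysm model, males of 8 to 10 weeks received tamoxifen by gavage at 75 mg/kg/day for 5 days. Those mice were used 2 weeks after tamoxifen. That the sequenced mice had the same treatment and interval is assumed here. The age at which the sequenced aortas were taken is not given in the sources used here. The tissue was whole abdominal aorta, in which Cre acts in smooth muscle cells and *Prdm16* of the other cell types is not targeted.

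Levels are given in TPM, a transcript abundance corrected for transcript length and scaled to one total in every library. The deposited TPM carry no read counts, so the depth of each library is unknown, and the labels give only an average over the libraries. Between 20332 and 22100 genes were above 0 in a library. *Prdm16*, the targeted gene, was at 33.42, 36.83 and 30.77 TPM in the control libraries and at 20.75, 27.67 and 14.77 TPM in the *Prdm16*SMKO libraries, lower in every one but not absent from the whole tissue. Summed TPM of 13 smooth muscle markers lay between 14893 and 30820 in all 6 libraries. Transcripts of sympathetic neurons set libraries apart, since 10 neuron markers summed to 976 TPM in *Prdm16*SMKO replicate 1 and to 245 TPM in control replicate 2, against 41.6 to 97.2 TPM in the other libraries. Brown and white adipocyte markers were highest in *Prdm16*SMKO replicate 3, where 10 of them summed to 2702 TPM against 497 to 1116 TPM elsewhere.

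*Calcrl* was higher in every *Prdm16*SMKO library than in any control library. It was at 10.21, 13.15 and 11.37 TPM in the control libraries and at 23.97, 23.79 and 25.08 TPM in the *Prdm16*SMKO libraries. The groups were far apart, and the highest control library lay well below the lowest *Prdm16*SMKO library. The mean was 11.6 ± 1.48 TPM in control and 24.3 ± 0.699 TPM in *Prdm16*SMKO aorta (SD, n = 3 each), a ratio of the means of 2.10. On the log2(TPM + 0.5) scale the difference was 1.04 with a standard error of 0.16 and a 95% confidence interval of 0.69 to 1.40. With 1 library left out at a time, the difference lay between 0.96 and 1.14. *Calcrl* was selected on this contrast, so the interval and this range are descriptions and no test of the difference.

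Of the 5 genes, 4 had a mean of at least 0.5 TPM and entered the fit over 15775 genes. Of these 4, 1 (*Calcrl*) was among the called genes, those at a Benjamini-Hochberg adjusted p under 0.05 in limma, which made up 0.355% of all genes tested in either direction. It was also the only 1 whose groups did not overlap, beside 12.8% of all genes tested. Both counts come from the contrast the genes were selected on, so they describe the selection and are no test of it. When any 1 of the 6 libraries was left out, no gene of the 4 was called.

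**Figure D1:**
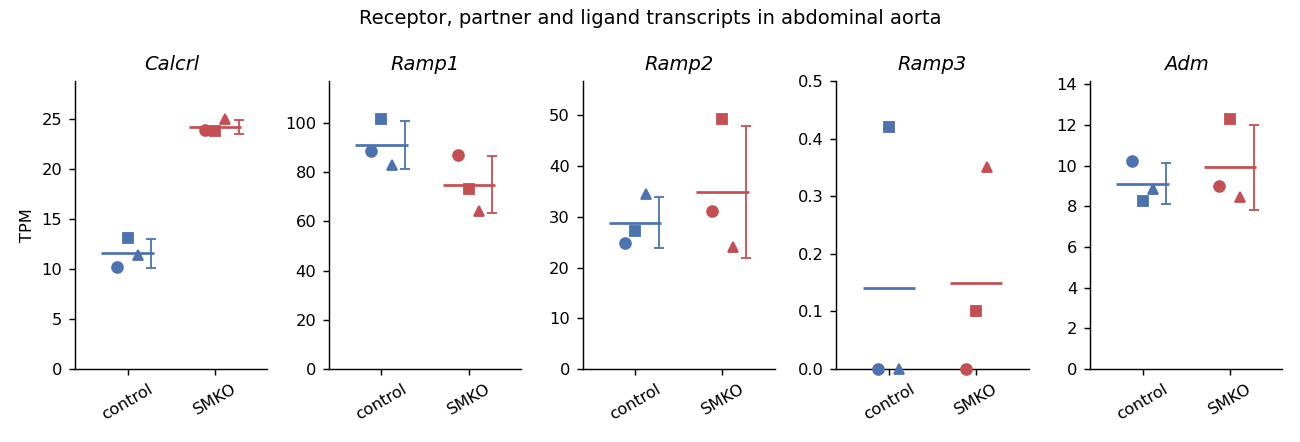
TPM of the receptor, its 3 partners and the ligand in each library (y axes start at 0 and differ between panels; blue, control; red, *Prdm16*SMKO; circle, square and triangle, replicates 1, 2 and 3). Horizontal lines are group means and vertical bars are 1 SD (n = 3), left out for *Ramp3*; *Calcrl* lies between 10.21 and 13.15 TPM in control and between 23.79 and 25.08 TPM in *Prdm16*SMKO aorta, and the groups overlap in the other panels.

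*Calcrl* lies on the minus strand of chromosome 2, from 84330626 to 84425411 on GRCm38, with 3 annotated transcripts over 94.8 kb. *Prdm16* is on chromosome 4, where none of the 5 genes lies. The sequence before the most upstream annotated start of *Calcrl* is shown because its transcripts differed between the groups, and that of *Ramp1* (plus strand, chromosome 1, from 91179822 to 91225196) because it encodes the most abundant partner. Both are RefSeq sequence of GRCm38.p6, read 5′ to 3′ on the strand of the gene, and capitals mark CACCC, a motif bound by Krüppel-like factors, on either strand. The *Calcrl* stretch is chr2:84425412-84425516 (minus strand, 105 bases) and holds neither CACCC nor the GC box GGGCGG, while the *Ramp1* stretch is chr1:91179572-91179821 (plus strand, 250 bases) and holds CACCC 61 bases and, on the other strand, 30 bases before the start.
Calcrl: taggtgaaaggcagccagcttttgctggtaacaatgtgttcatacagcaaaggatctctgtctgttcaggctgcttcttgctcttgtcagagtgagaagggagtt
Ramp1: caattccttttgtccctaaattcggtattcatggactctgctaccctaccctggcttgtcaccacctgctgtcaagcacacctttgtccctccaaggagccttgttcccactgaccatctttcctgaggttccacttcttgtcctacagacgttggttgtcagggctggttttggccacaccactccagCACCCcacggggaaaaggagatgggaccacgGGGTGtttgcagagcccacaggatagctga

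RefSeq places its *Calcrl* start within the first exon of a GENCODE transcript, and its 250 bases before that start do hold 1 GC box, 83 bases upstream, that shares a base with a CACCC on the other strand, 78 bases upstream. These 30 bases, chr2:84425330-84425359 on the minus strand, are shown with both motifs in capitals.
Calcrl GC box: agtgcaggcgGGGCGGGGTGatgtaacagg

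The 250 bases before the start of *Adm* held 1 GC box and no CACCC, and those of *Ramp3* held 3 GC boxes and 2 CACCC. No RefSeq promoter was matched for *Ramp2*. ACGTG, the core that hypoxia-inducible factors bind, TGACG, part of the cyclic AMP response element, and the CArG box of serum response factor matched in none of the 4 windows on either strand. Among 32851 RefSeq promoter windows of the same length, 32.74% held GGGCGG, 52.01% CACCC, 16.57% ACGTG, 17.77% TGACG and 1.467% a CArG box. These are matches of letters, and no binding was measured.

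*Ramp1*, the partner that makes the CGRP receptor, was the most abundant of the 5 transcripts in all 6 libraries. It was at 88.71, 101.79 and 82.78 TPM in the control libraries and at 87.13, 73.14 and 64.16 TPM in the *Prdm16*SMKO libraries. The groups overlapped, because *Prdm16*SMKO replicate 1 lay inside the control range while replicates 2 and 3 lay below it. The mean was 91.1 ± 9.73 TPM in control and 74.8 ± 11.6 TPM in *Prdm16*SMKO aorta (SD, n = 3 each). The difference on the log2(TPM + 0.5) scale was -0.29, with a standard error of 0.17 and a 95% confidence interval of -0.66 to 0.09.

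*Ramp2* encodes the partner that makes the main adrenomedullin receptor of endothelium. It was at 24.87, 27.29 and 34.45 TPM in the control libraries and at 31.25, 49.38 and 24.12 TPM in the *Prdm16*SMKO libraries. *Prdm16*SMKO replicate 2 was the highest of the 6 and replicate 3 the lowest, so the control values lay within the *Prdm16*SMKO range. The mean was 28.9 ± 4.98 TPM in control and 34.9 ± 13.0 TPM in *Prdm16*SMKO aorta (SD, n = 3 each), and the log2 difference of 0.22 had a 95% confidence interval of -0.37 to 0.81. Without *Prdm16*SMKO replicate 2 it was -0.06. *Ramp2* (chromosome 11, plus strand, from 101246028 to 101259546, 8 transcripts) overlaps *Vps25* on the same strand, which was at 49.3 to 82.3 TPM in control and 57.2 to 66.9 TPM in *Prdm16*SMKO libraries, and reads of the shared stretch may have been divided between them.

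*Ramp3*, the partner of the other adrenomedullin receptor (chromosome 11, plus strand, from 6658521 to 6677475), was close to the lower end of the scale. It was listed at 0, 0.42 and 0 TPM in the control libraries and at 0, 0.10 and 0.35 TPM in the *Prdm16*SMKO libraries. Libraries at 0 occurred in both groups, and *Ramp3* did not enter the fit.

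*Adm*, the ligand gene, had overlapping levels in the groups. It was at 10.23, 8.24 and 8.86 TPM in the control libraries and at 9.02, 12.31 and 8.44 TPM in the *Prdm16*SMKO libraries. The ranges overlapped, and only *Prdm16*SMKO replicate 2 lay above the highest control library. The mean was 9.11 ± 1.02 TPM in control and 9.92 ± 2.09 TPM in *Prdm16*SMKO aorta (SD, n = 3 each). The log2 difference was 0.10 with a 95% confidence interval of -0.34 to 0.54, and it was -0.05 without *Prdm16*SMKO replicate 2. *Adm* (chromosome 7, plus strand, from 110627661 to 110629820) lies inside the antisense gene *Gm28863*, which was at 0 in all 6 libraries.

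Across the 6 libraries, mean TPM ordered the transcripts as *Ramp1* (83.0), *Ramp2* (31.9), *Calcrl* (17.9), *Adm* (9.52) and *Ramp3* (0.145). Neighbours in this order were compared within libraries by an exact paired permutation test, in which 6 libraries allow no two-sided p below 0.03125. *Ramp1* exceeded *Ramp2* in 6 of 6 libraries by a mean log2 difference of 1.39 (exact permutation p = 0.03125, 0.0625 after Benjamini-Hochberg adjustment over 4 pairs). *Ramp2* exceeded *Calcrl* in 5 of 6 libraries by 0.86, with *Prdm16*SMKO replicate 3 the other way round. *Calcrl* exceeded *Adm* in 5 of 6 libraries by 0.80, and in control replicate 1 the values, 10.21 and 10.23 TPM, nearly coincided. *Adm* exceeded *Ramp3* in 6 of 6 libraries by 3.99. *Ramp3* was at 0 to 0.42 TPM, so the size of this difference depends on the 0.5 TPM added before the logarithm. No pair of neighbours passed 0.05 after adjustment. A pair at the smallest possible p could not pass on its own after adjustment over 4 pairs, so this outcome cannot decide the order. The order was taken from the same 6 libraries, with both groups together. The mean of *Calcrl* was 11.6 TPM in control and 24.3 TPM in *Prdm16*SMKO aorta. Its pooled mean and its differences from its neighbours therefore hold the group difference within them and describe neither group alone.

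The shares of the partner transcripts overlapped between the groups, while receptor transcripts per summed RAMP transcript did not. *Ramp1* made up 78.1%, 78.6% and 70.6% of the summed RAMP TPM in the control libraries and 73.6%, 59.6% and 72.4% in the *Prdm16*SMKO libraries. The ranges overlapped, and *Prdm16*SMKO replicate 2, the library with the most *Ramp2*, had the lowest share. The summed RAMP TPM was 120 ± 8.34 in control and 110 ± 18.5 in *Prdm16*SMKO aorta (SD, n = 3 each). *Calcrl* stood at 8.99, 10.2 and 9.70 TPM per 100 RAMP TPM in the control libraries and at 20.2, 19.4 and 28.3 in the *Prdm16*SMKO libraries. The groups did not overlap in this ratio, and *Prdm16*SMKO replicate 3, with the highest ratio, had the lowest RAMP sum of the 6 libraries, 88.6 TPM. *Ramp1* was present at 7.28 to 8.69 TPM per *Calcrl* TPM in control and at 2.56 to 3.63 in *Prdm16*SMKO aorta. For *Ramp2* the ratio to *Calcrl* was 2.08 to 3.03 in control and 0.962 to 2.08 in *Prdm16*SMKO aorta, ranges that just overlapped at control replicate 2 and *Prdm16*SMKO replicate 2. These ratios hold the *Calcrl* difference within them and are given as descriptions.

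**Figure D2:**
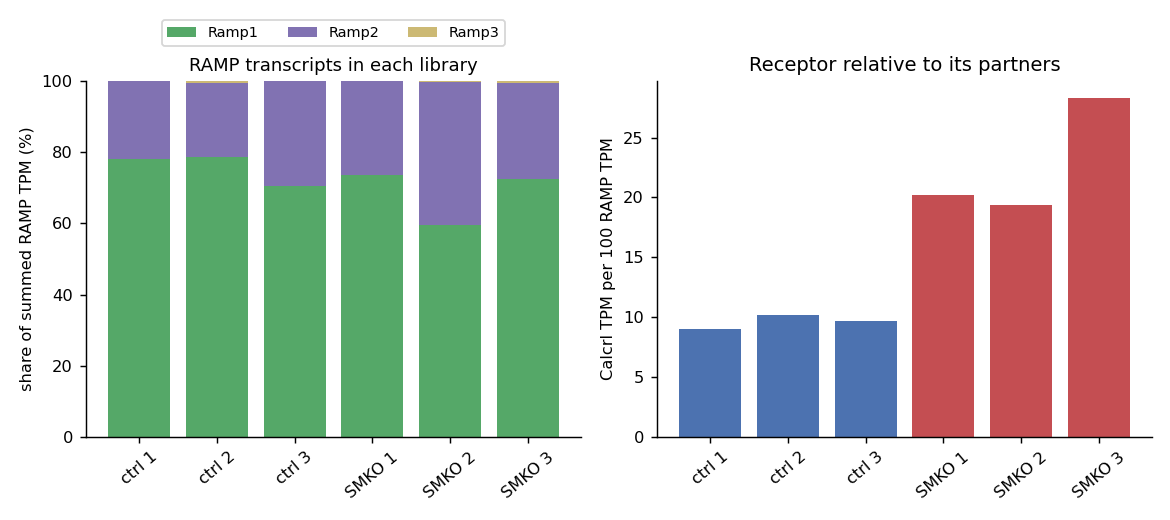
Left, share of *Ramp1*, *Ramp2* and *Ramp3* in the summed RAMP TPM (%) of each library; right, *Calcrl* TPM per 100 RAMP TPM in each library (blue, control; red, *Prdm16*SMKO; each bar is 1 library). *Ramp1* makes up 59.6% to 78.6% of the RAMP TPM, and the receptor stands at 8.99 to 10.2 per 100 RAMP TPM in control and at 19.4 to 28.3 in *Prdm16*SMKO aorta.

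The other peptides of the family were scarcely read in the aorta. *Calca*, which encodes CGRP and calcitonin, was at 0 TPM in 5 libraries and at 0.56 TPM in *Prdm16*SMKO replicate 3. *Adm2*, which encodes intermedin, was at 0 TPM except for 0.10 TPM in control replicate 3. *Calcb* (the other CGRP gene), *Iapp* (amylin) and *Calcr* (the calcitonin receptor, which with RAMPs forms the amylin receptors) were at 0 TPM in all 6 libraries. None of these 5 genes reached the minimum for a test.

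Genes that process, bind or degrade the peptides were expressed, and none of the 11 was called by limma. *Cpe*, a carboxypeptidase of prohormones, was at 765 to 1027 TPM in control and 827 to 1051 TPM in *Prdm16*SMKO libraries. *Pam*, which amidates the C terminus that adrenomedullin and CGRP need for activity, was at 523 to 652 and 433 to 598 TPM. *Furin*, a proprotein convertase, was at 32.24, 37.74 and 28.01 TPM in control and 24.63, 26.58 and 24.53 TPM in *Prdm16*SMKO libraries (log2 difference -0.36, limma adjusted p = 0.588). It was the only 1 of the 11 whose groups did not overlap, beside 12.8% of all genes tested. *Pcsk5*, another convertase, had a mean of 18.2 TPM, and the peptidases *Ece1*, *Ide* and *Mme* had means of 47.1, 12.3 and 6.22 TPM. *Ackr3*, a scavenging receptor of adrenomedullin, was at 17.48 TPM in *Prdm16*SMKO replicate 2 and at 8.42 to 10.87 TPM in the other libraries. *Gpr182*, another atypical receptor, and *Crcp*, a component of CGRP receptor signalling, had means of 1.12 and 13.9 TPM. Of the 11 genes, 6 had a higher and 5 a lower mean log2 level in *Prdm16*SMKO aorta, with a median difference of 0.15, beside a median of 0.02 over all genes tested.

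Downstream of the receptor, 6 further lists covered desensitisation and sorting, the Gs, cyclic AMP and protein kinase A effectors, cyclic AMP phosphodiesterases, other Gs-coupled vasodilator receptors, other receptors that bind RAMPs, and genes inducible by hypoxia, to which *Adm* itself is known to respond. With the peptide and processing genes these lists held 125 genes, counted once each, of which 104 were tested. By limma 0 of the 104 were called, beside 0.355% of all genes tested. Of the 104, 71 were higher and 33 lower in *Prdm16*SMKO aorta, beside 8552 higher and 7223 lower of the 15775 genes tested. The median log2 difference was 0.09, beside 0.02 over all genes tested. An unadjusted p under 0.05 was reached by 12 of the 104, 7 higher and 5 lower, beside 8.74% of all genes tested. The groups did not overlap for 15 of the 104, beside 12.8% of all genes tested.

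Among the 13 genes of desensitisation and sorting, 12 were higher and 1 was lower in *Prdm16*SMKO aorta (median log2 difference 0.11). *Arrb2*, which encodes a beta-arrestin that uncouples and internalises the receptor, differed most, with 5.68, 8.40 and 5.52 TPM in control and 11.20, 10.11 and 9.74 TPM in *Prdm16*SMKO libraries. The groups did not overlap, and the difference of 0.65 had a limma adjusted p of 0.355. *Ece1*, which degrades CGRP in endosomes so that the receptor can recycle, came next at 0.37. The most abundant were the endosomal GTPases *Rab7* and *Rab11a*, with means of 167 and 57.3 TPM and log2 differences of 0.05 and 0.35.

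Of the 28 tested Gs, cyclic AMP and protein kinase A genes, 17 were higher and 11 lower (median 0.03). *Gnas*, which encodes the Gs alpha subunit, was at 634 to 933 TPM in control and 701 to 1034 TPM in *Prdm16*SMKO libraries. *Adcy5*, an adenylyl cyclase, was at 188 to 294 and 145 to 195 TPM, with a log2 difference of -0.40 and a limma adjusted p of 0.684. The largest differences were of 2 regulatory subunits of protein kinase A, each far higher in 1 library than in the others. *Prkar2b* was at 86.16 TPM in *Prdm16*SMKO replicate 3, the library with the most adipocyte markers, and at 6.84 to 21.78 TPM in the others. *Prkar1b* was at 25.47 TPM in *Prdm16*SMKO replicate 1, the library with the most neuron markers, and at 2.83 to 5.65 TPM in the others.

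Phosphodiesterases end the cyclic AMP signal, and of 13 tested 10 were higher and 3 lower (median 0.25). *Pde1b* was at 0.89 to 1.09 TPM in control and 1.97 to 2.60 TPM in *Prdm16*SMKO libraries, a log2 difference of 0.90 (limma adjusted p = 0.266). *Pde4b* was at 9.77, 16.05 and 14.93 TPM in control and 8.35, 8.16 and 5.45 TPM in *Prdm16*SMKO libraries, a log2 difference of -0.84 (limma adjusted p = 0.306). The groups did not overlap for 3 of the 13, 2 higher and 1 lower, beside 12.8% of all genes tested. These were *Pde1b*, *Pde4b* and *Pde2a*, the last with a log2 difference of 0.72 (limma adjusted p = 0.549). The most abundant, *Pde3a* and *Pde1a*, had means of 45.3 and 19.2 TPM and log2 differences of -0.18 and 0.02.

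Receptors that share a signal or a partner with the calcitonin receptor-like receptor were mostly low. Among 12 tested Gs-coupled vasodilator receptors, 7 were higher and 5 lower (median 0.14). *Drd1*, a dopamine receptor, was at 0.06 to 0.29 TPM in control and 0.89 to 1.24 TPM in *Prdm16*SMKO libraries (limma adjusted p = 0.288), and *Crhr2*, the urocortin receptor, was at 2.76 to 7.95 and 1.88 to 2.56 TPM (limma adjusted p = 0.428). *Adrb3*, a beta-adrenergic receptor of adipocytes, was the most abundant of the 12 by its mean, 15.1 TPM, and was at 36.17 TPM in *Prdm16*SMKO replicate 3. Of 6 tested receptors that bind RAMPs, 5 were higher and 1 was lower (median 0.20), with *Pth1r*, the parathyroid hormone receptor, at 10.55 to 17.68 TPM and *Vipr2*, a receptor of vasoactive intestinal peptide, at 3.11 to 7.10 TPM. *Adcyap1r1*, the PACAP receptor, was at 1.16 to 1.78 TPM in control libraries, 7.46 TPM in *Prdm16*SMKO replicate 1 and 2.14 and 2.11 TPM in replicates 2 and 3, and *Sctr*, the secretin receptor, at 0.11 to 1.91 TPM over all libraries.

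Of 26 hypoxia-inducible genes 18 were higher and 8 lower (median 0.13). *Bhlhe40*, a transcriptional repressor, was at 12.33, 13.55 and 11.96 TPM in control and 20.06, 28.47 and 20.58 TPM in *Prdm16*SMKO libraries, and the groups did not overlap. Its log2 difference of 0.83 had a limma adjusted p of 0.128, the lowest of the 104 genes. *Ddit4*, an inhibitor of mTOR signalling, differed by 0.54, with overlapping groups. The glycolytic enzymes *Aldoa* and *Ldha* were the most abundant, with means of 403 and 138 TPM and log2 differences of 0.24 and 0.43.

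**Figure D3:**
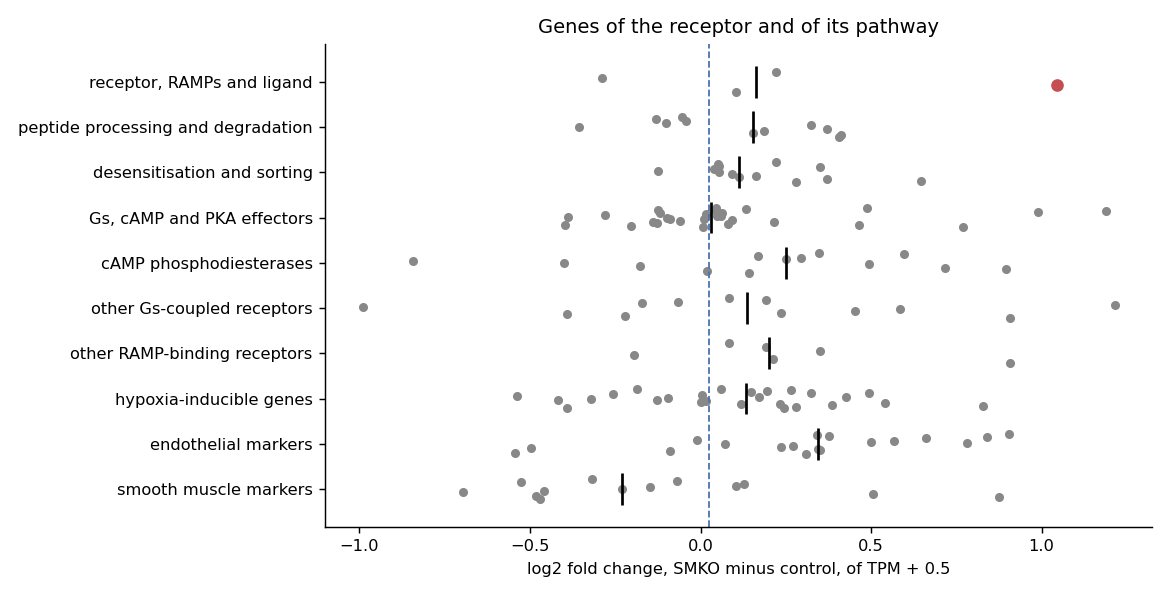
Log2 difference, *Prdm16*SMKO minus control, of TPM + 0.5 (x axis) for each tested gene of each list (rows); each point is 1 gene, black bars are list medians, the dashed line is the median of all genes tested (0.02), and the red point is *Calcrl*, the only called gene shown. List medians of the receptor pathway lie between 0.03 and 0.25.

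*Calcrl* and *Ramp2* are known for high expression in endothelium, so markers of cell types were read beside them. In bulk tissue, fewer cells of a type and less RNA per cell cannot be told apart. None of 18 endothelial markers was called by limma, and 14 were higher and 4 lower in *Prdm16*SMKO aorta, with a median log2 difference of 0.34 (0.24 to 0.53 with 1 library left out). With array weights, which count libraries by their closeness to the fit, 4 of the 18 were called, beside 494 of all 15775 genes tested. The median of the 18 was then 0.43. The summed TPM of the 18 markers was 441, 497 and 518 in the control libraries and 484, 783 and 540 in the *Prdm16*SMKO libraries. The groups overlapped, with *Prdm16*SMKO replicate 2 well above the rest, as it was for *Ramp2* and *Adm*. At an unadjusted p under 0.05 in limma, *Vwf*, *Sox18*, *Nos3* and *Sox17* were higher and *Cldn5* and *Erg* lower, all with adjusted p of at least 0.288. These were 6 of the 18, beside 8.74% of all genes tested. For 5 of the 18, 3 higher and 2 lower, the groups did not overlap, beside 12.8% of all genes tested. No endothelial marker was at 0 in any library.

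Relative to the endothelial markers, *Calcrl* was at 23.1, 26.5 and 21.9 TPM per 1000 TPM of these markers in the control libraries and at 49.5, 30.4 and 46.4 in the *Prdm16*SMKO libraries. The groups did not overlap, and *Prdm16*SMKO replicate 2 was the closest to control. This ratio holds the *Calcrl* difference within it and is given as a description. For *Ramp2* the same ratio was 56.3, 54.9 and 66.5 in control and 64.5, 63.0 and 44.6 in *Prdm16*SMKO libraries, which overlapped. *Calcrl* was at 23.97 TPM in *Prdm16*SMKO replicate 1, whose endothelial sum of 484 TPM lay inside the control range. It was at 23.79 and 25.08 TPM in replicates 2 and 3, whose sums of 783 and 540 TPM lay above that range. The part of endothelial content in the *Calcrl* difference was not tested.

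None of the genes of the other marker lists was called by limma. With array weights, which called 494 of all 15775 genes tested, 1 lymphatic endothelial, 1 smooth muscle and 1 Schwann cell marker were called. Smooth muscle markers were 4 higher and 9 lower of 13 (median -0.23, and -0.44 to -0.004 with 1 library left out), and their sum was 18734 to 30820 TPM in control and 14893 to 22949 TPM in *Prdm16*SMKO libraries. Macrophage markers were 9 higher and 1 lower of 10 (median 0.72, and 0.49 to 0.94 with 1 library left out), with sums of 73.9 to 118 TPM in control and 117 to 213 TPM in *Prdm16*SMKO libraries. An unadjusted p under 0.05 in limma was reached by 5 of the 10 macrophage markers, all higher. It was reached by 5 of the 13 smooth muscle markers, 2 higher and 3 lower, beside 8.74% of all genes tested. The groups did not overlap for 3 markers of each of these 2 lists, beside 12.8% of all genes tested. Of 6 tested lymphatic endothelial markers 5 were higher and 1 was lower (median 0.26, and 0.09 to 0.54 with 1 library left out), with sums of 31.8 to 39.5 and 25.7 to 55.7 TPM. The medians were 0.08 for 12 fibroblast, 0.83 for 10 adipocyte, 0.87 for 10 neuron and 0.93 for 8 Schwann cell markers. Single libraries moved these medians, since without *Prdm16*SMKO replicate 1 the neuron median was -1.29 and the Schwann cell median 0.30, without *Prdm16*SMKO replicate 3 the adipocyte median was 0.20, and without *Prdm16*SMKO replicate 2 the fibroblast median was -0.13. Without control replicate 2 the neuron median was 2.06. The genes *Dbh* and *Th*, which make noradrenaline, were at 0 to 0.13 TPM outside the libraries with the most neuron markers. *Calcrl* was at 23.97 TPM in the library with the most neuron markers, at 25.08 TPM in the one with the most adipocyte markers and at 23.79 TPM in the one with the most endothelial and macrophage markers. Without *Prdm16*SMKO replicate 1 and control replicate 2, left out after the data were seen, its log2 difference was 1.14, and it was not called with 2 libraries in each group. The part of cell type content in the *Calcrl* value was not tested.

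**Figure D4:**
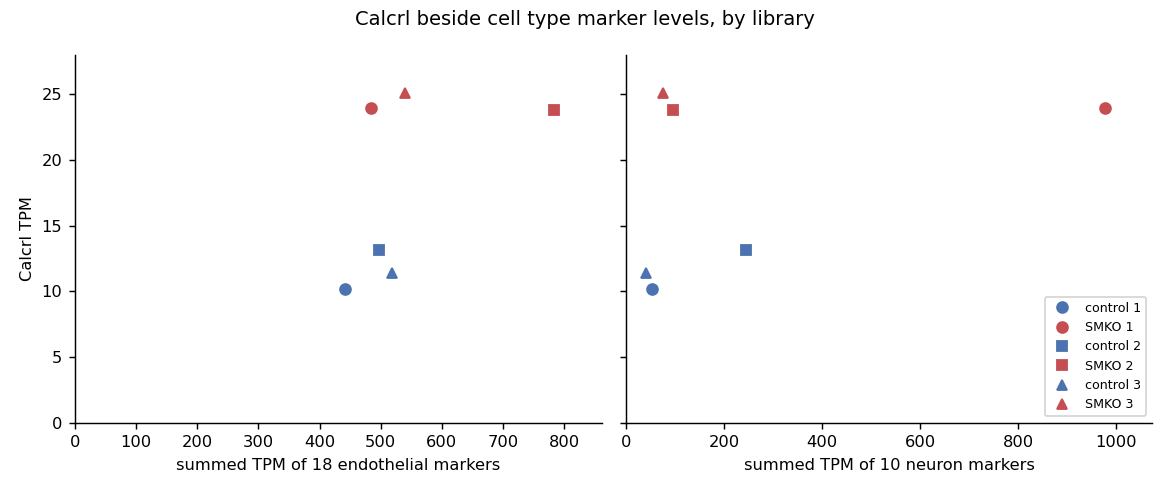
*Calcrl* TPM (y axis) against the summed TPM of 18 endothelial markers (left) and 10 neuron markers (right) in each library (blue, control; red, *Prdm16*SMKO; circle, square and triangle, replicates 1, 2 and 3). The 3 *Prdm16*SMKO libraries lie at 23.79 to 25.08 TPM of *Calcrl*, their endothelial sums run from 484 to 783 TPM and their neuron sums from 75.9 to 976 TPM.

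The genes whose log2 profile over the 6 libraries was closest to that of each receptor gene were found among the 9668 genes whose mean reached 5 TPM, by the root-mean-square difference of the centred log2 values. Nearest to *Calcrl* was *Hccs*, a mitochondrial haem lyase, at a distance of 0.10, with 5.32, 5.89 and 4.82 TPM in control and 12.42, 11.50 and 12.97 TPM in *Prdm16*SMKO libraries. *Lbh*, a transcriptional cofactor, and *Bok*, a member of the BCL2 family, followed at 0.14 and 0.15, and all 3 had higher values in every *Prdm16*SMKO library. The nearest to *Ramp1* were *Tcea3*, *Rbbp6* and *Rrbp1* at 0.034, 0.034 and 0.036, all with overlapping groups. For *Ramp2* they were *Zfp592*, *Sdf2l1* and *Col4a4* at 0.12, 0.13 and 0.14, and for *Adm* they were *Igfbp6*, *Naaa* and *Pnpt1* at 0.062, 0.066 and 0.074. Genes with the same group difference are close to each other by construction, so these are descriptions over 6 libraries.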

How the data were processed

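Polyadenylated RNA of 6 aortas was sequenced by the authors as 151 bp read pairs from NEBNext Ultra RNA libraries. The submitters' processing notes name cutadapt 2.3, FastQC 0.11.8, STAR 2.7.8a, RSEM 1.3.3, MultiQC 1.7 and GRCm38. The authors deposited TPM values, scaled to one total in every library, for 55426 genes. The strand setting and the annotation are not given in the sources used here. TPM keep no depth, so no counting error was computed, and 45S and mitochondrial transcripts took 15.6% to 31.4% and 15.8% to 27.4% of them.

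*Prdm16*SMKO and control libraries were compared on log2(TPM + 0.5) for the 15775 genes whose mean reached 0.5 TPM by limma 3.58.1 (R 4.3.3, moderated variances with a trend, two-sided, Benjamini-Hochberg adjustment over all genes, called under 0.05). The script was tested on simulated data. Symbols were matched with Python 3.11.15 to the gene names deposited with the TPM values, and older symbols were looked up in RefSeq. Gene positions, transcripts and overlapping genes were taken from GENCODE M21 on GRCm38. The receptor genes and all lists were chosen with earlier results of these data known. From the peptide and processing lists every expressed gene was named, except 1 that is not reported here, and from the other pathway lists the called genes, the 2 with the largest differences and the 2 with the highest means. Other genes were named after their values were seen. Where a symbol had 2 identifiers, the row with the higher mean was used. Nothing in the labels says more of the mice than their group, so p-values measure the spread between 3 libraries a group. The comparison was repeated under 17 other settings of pseudocount, minimum, scaling, variance model, pairing and libraries.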

Additional observations from a re-analysis of the deposited data

How the results depend on the processing

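*Calcrl* was higher in *Prdm16*SMKO aorta under the 17 other settings listed in the methods, with log2 differences of 0.96 to 1.18, the latter with array weights. Of the 5 receptor genes, 1 was called, and 0 were called with no expression minimum, with no trend and without any single library (0 to 0), nor without the libraries richest in neuron markers, an alternative chosen after seeing the data. The 104 pathway genes, of which 0 were called, gave 6 calls with array weights (*Arrb2*, *Bhlhe40*, *Ddit4*, *Pde1b*, *Pde2a* and *Crhr2*) and 0 under every other alternative. Array weights called 494 of all 15775 genes tested. *Ramp1* stayed lower, at -0.40 to -0.18, while *Ramp2* and *Adm* fell to -0.06 and -0.05 without *Prdm16*SMKO replicate 2, and *Adm* to -0.003 with array weights.

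Over all genes, 56 were called. There were 10 with no minimum, 153 with median-of-ratios size factors, 129 with quantile normalization, 145 without mitochondrial and 45S genes, 33 with no trend, 112 with robust estimation and 494 with array weights. The share of higher genes among them was 51.8% in the fit reported, 40.0% with no minimum, 40.3% with a minimum of 2 TPM, 39.2% with size factors and 35.7% with quantile normalization. Leaving out 1 library gave 5 calls (without control replicate 2) to 61 (without *Prdm16*SMKO replicate 1), with 28 without *Prdm16*SMKO replicate 2 and 17 without control replicate 1 or 3, and the libraries richest in neuron markers left out gave 13. The median of all genes was 0.11 without control replicate 2. The causes were not tested.

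With replicate number as a block, 4 genes were called and 0 of the receptor genes. Same-numbered libraries did not deviate together (r = -0.13, -0.11 and 0.02). The labels do not say whether the numbers pair the mice, and with 3 libraries a group these correlations cannot decide it. With unknown depth and 3 mice a group, *Ramp3* and the peptides near 0 TPM could not be compared. In the fit reported, the intervals of *Ramp1*, *Ramp2* and *Adm* allow differences in either direction. For *Ramp1* this depended on scaling. Its difference was -0.30 (standard error 0.099) with median-of-ratios size factors and -0.27 (0.095) without mitochondrial and 45S genes, and it was called under neither.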
